A study of Mus musculus with 6 samples.

Results

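The 4 inhibitor of DNA binding genes Id1, Id2, Id3 and Id4, the E-protein genes Tcf3, Tcf4 and Tcf12, and the repressor genes Hes1 and Hey1 were examined in 3T3-L1 cells with and without resveratrol. Every probe set that the platform annotation assigns to exactly 1 of these 9 genes was taken, which gave 24 probe sets of 45101 on the array. These genes were put together with results of the same comparison of resveratrol with control already known, so their differences between the groups are given as a description, with standard errors and without p-values. 3T3-L1 is an established line of mouse fibroblasts, widely used because hormones can make it differentiate into adipocytes. Resveratrol is a plant polyphenol. The arrays came from 3 untreated control samples and 3 samples treated with resveratrol, and all 6 are of the same line. Neither a dose, nor a duration, nor a stage of differentiation is named in the labels. Nothing in them says whether the cultures were grown on separate occasions, so the errors measure the spread between these 3 arrays a group, which may be technical.

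Basic helix-loop-helix (bHLH) proteins bind DNA as pairs at a short site called the E box. The helix-loop-helix part joins the partners and the basic part touches DNA. Id proteins have the helix-loop-helix but no basic part, so a partner that is caught by an Id protein does not bind DNA. Their main partners are the E proteins encoded by Tcf3, Tcf4 and Tcf12, which otherwise pair with tissue-restricted bHLH factors such as Myod1. Id genes are best known as direct targets of bone morphogenetic protein (BMP) signalling through Smads, and Id proteins are associated with proliferation and with delayed differentiation. Hes1 and Hey1 encode bHLH repressors that are classical targets of Notch signalling.

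Read from the brightest probe set of each gene, the 4 Id genes had the largest differences among these 9 genes. The dim Id2 probe set was tested only because of its treated arrays, so its place here was favoured by the filter. RefSeq promoter entries were matched for 5 of the 9 genes, which were Id2, Id3, Id4, Tcf3 and Tcf12, and not for Id1. The 250 bases upstream of the annotated start of Id2, Id3 and Id4 are shown because these genes were higher together in the treated cells. The sequences are from build GRCm38.p6, 5′ to 3′ on the strand of the gene, from chr12:25096093-25096342 (minus strand) for Id2, chr4:136143572-136143821 (plus strand) for Id3 and chr13:48260866-48261115 (plus strand) for Id4. Capitals mark the E box CANNTG, the GC palindrome GGCGCC known from BMP response elements, and the CCAAT box.
Id2: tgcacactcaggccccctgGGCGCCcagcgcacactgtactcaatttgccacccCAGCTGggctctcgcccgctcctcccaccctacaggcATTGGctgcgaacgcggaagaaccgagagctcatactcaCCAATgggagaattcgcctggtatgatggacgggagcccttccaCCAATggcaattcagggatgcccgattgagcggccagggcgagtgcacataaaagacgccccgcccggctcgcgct
Id3: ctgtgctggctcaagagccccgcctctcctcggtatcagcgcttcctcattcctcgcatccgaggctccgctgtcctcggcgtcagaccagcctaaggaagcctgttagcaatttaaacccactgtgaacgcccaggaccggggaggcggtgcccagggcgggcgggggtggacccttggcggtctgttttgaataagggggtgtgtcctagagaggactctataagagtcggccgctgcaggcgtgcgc
Id4: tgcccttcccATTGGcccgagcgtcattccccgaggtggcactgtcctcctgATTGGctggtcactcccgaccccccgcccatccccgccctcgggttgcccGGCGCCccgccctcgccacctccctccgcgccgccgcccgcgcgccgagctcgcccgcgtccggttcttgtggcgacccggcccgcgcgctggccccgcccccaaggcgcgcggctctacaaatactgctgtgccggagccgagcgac

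These windows did not share one set of motifs. On either strand, Id2 held 1 E box, 1 GC palindrome and 3 CCAAT boxes, Id4 held 1 GC palindrome and 2 CCAAT boxes, and Id3 held none of the 3 motifs. Of the E-protein windows, not shown, that of Tcf3 held 1 E box. Those of Tcf12 held 1 E box or 2 CCAAT boxes. Like Id3, these held no GC palindrome. The GC palindrome of Id2 began 231 bases before the start and that of Id4 148 bases before it. Among 32817 upstream windows of the same length, 66.2% held CANNTG, 9.59% held GGCGCC and 33.8% held CCAAT. The N box CACNAG, a site known for Hes repressors and not marked in capitals, was found once in Id4 and in 36.7% of all windows. The windows of Id2 and Id3 were 62.8% G and C and that of Id4 75.6%. These matches describe letters and not bound sites, and no binding was measured.

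Values are array intensities in arbitrary units, not log transformed as deposited, and differences are given on log2(intensity + 16), resveratrol minus control, which understates changes of dim probe sets. Of the 24 probe sets, 21 belonged to the brightest 60% that entered the test across the whole array, and 3 were too dim. The dim ones were 2 of the 3 probe sets of Id2 and 1 of the 6 of Tcf4. In a limma fit with Benjamini-Hochberg adjustment over all 27022 tested probe sets, 8.17% of probe sets passed at 0.05, with 3.95% higher and 4.22% lower in treated cells. All 3 treated arrays lay above all 3 controls for 13.8% of tested probe sets and below them for 12.6%, together 26.4%, and the groups lay apart for 30.2% of tested genes. Nothing is read from the members' own calls against these shares, since the members were chosen on this comparison.

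Id3 had the largest difference of the 9 genes at their brightest probe sets. The Id3 probe set had intensities of 95.3, 105 and 87.1 on the control arrays and 250, 229 and 262 on the treated arrays. The groups lay far apart, with the lowest treated array above the highest control. The group means were 95.9 ± 9.06 and 247 ± 16.8 (SD, n = 3), a ratio of 2.57, and the log2 difference was 1.23 ± 0.10 (SE). Among the 12630 genes tested, each read from its brightest probe set, this difference was number 5 from the top.

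Id1, the classical BMP target of the family, had the brightest Id probe set. It read 527, 469 and 442 in the controls and 738, 769 and 754 in the treated cultures. The groups did not overlap, and the treated arrays differed less among themselves than the controls did. The means were 479 ± 43.7 and 754 ± 15.6 (SD, n = 3), a ratio of 1.57, with a log2 difference of 0.64 ± 0.08 (SE).

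**Figure D1:**
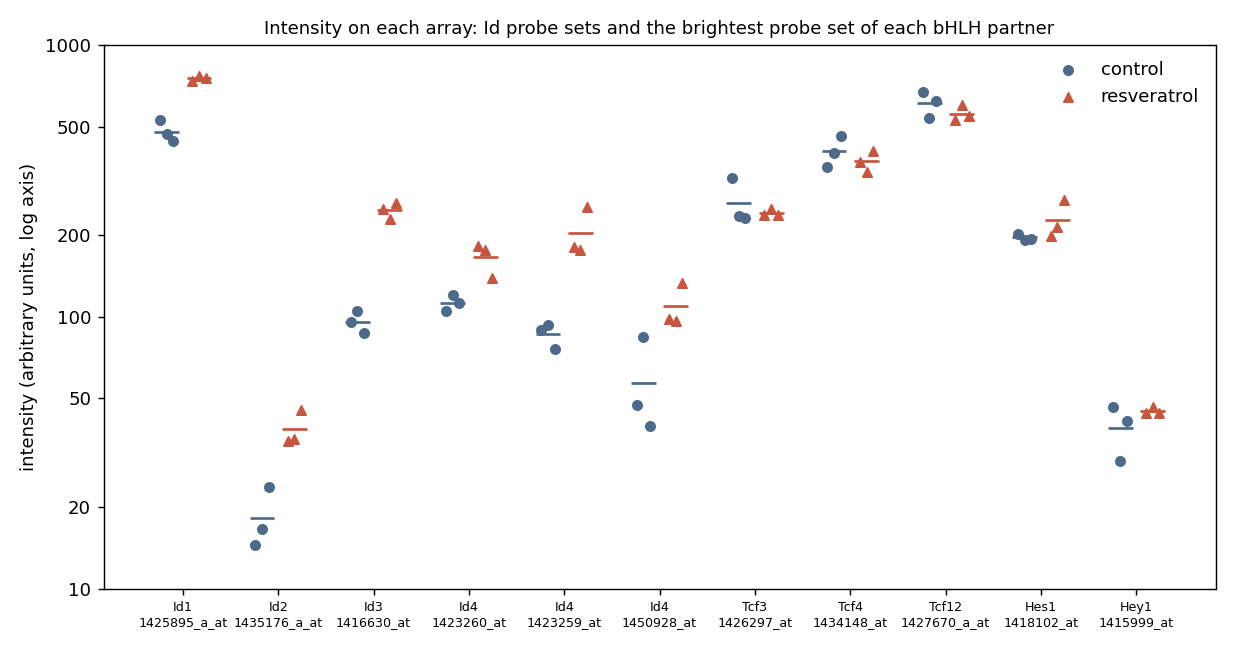
Intensity on each of the 6 arrays (log axis) for the 6 tested Id probe sets and for the brightest probe set of each E-protein gene, Hes1 and Hey1. Points are single arrays, horizontal lines are group means. The control and treated arrays lie apart for the 6 Id probe sets and overlap for the other 5 shown, beside 26.4% of all tested probe sets lying apart. The genes were chosen on this comparison, and the Id2 probe set was tested only through its treated arrays. Among probe sets not shown, 4 of E-protein genes had the treated arrays below the controls, and the dim second one of Id2 overlapped.

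Id4 was represented by 3 probe sets, all drawn from the same expressed sequence, which are therefore not independent. At the first the controls read 105, 120 and 112 and the treated arrays 181, 176 and 138. At the second the controls read 89.0, 93.3 and 76.2 and the treated arrays 180, 175 and 252. At the third the controls read 47.4, 84.4 and 39.5 and the treated arrays 98.3, 96.7 and 133. The groups lay apart at each of the 3, but treated replicate 3 was the lowest treated array at the first and the highest at the others, and control replicate 2 stood high at the third. Their log2 differences were 0.49 ± 0.12, 1.08 ± 0.14 and 0.81 ± 0.21 (SE, n = 3 a group). The size for Id4 thus depends on the probe set. The first is the brightest by the mean of log2 values, and the second is the brightest by mean intensity.

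Id2 was the dimmest of the 4 Id genes. Its brightest probe set read 14.4, 16.6 and 23.6 in the controls and 34.8, 35.6 and 45.5 in the treated cultures. The groups did not overlap, with a mean of 18.2 ± 4.80 against 38.6 ± 5.96 (SD, n = 3) and a log2 difference of 0.68 ± 0.18 (SE). The lowest mean that entered the test was 20.3 (the mean of log2 values turned back to intensity), so this probe set, whose control mean lies below it, was tested only through its treated arrays and had to lie higher there. The log2 difference was 1.06 with an offset of 1 and 0.32 with an offset of 64. At the second Id2 probe set the controls read 7.13, 12.9 and 22.9 and the treated arrays 27.4, 22.7 and 32.6, which overlap. The third Id2 probe set stayed under 10 on all 6 arrays.

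The E-protein genes, whose products the Id proteins bind, differed little, and most of their probe sets leaned in the other direction. Of their 14 probe sets 13 were tested and none was called, though the second of Tcf12 was called lower in some other fits. This count carries little weight, beside 4.22% of all tested probe sets called lower. Of these 13, 12 had a negative difference, from -0.56 to -0.01, and 1 a positive one of 0.03. The 13 are 5 probe sets of Tcf4, 5 of Tcf12 and 3 of Tcf3, and those of one gene are not independent. Their median was -0.15, beside 0.01 over all tested probe sets. All 3 treated arrays lay below the controls for 4 of the 13 probe sets, beside 12.6% of all tested probe sets, and the groups overlapped for 9. Of those 4, 3 were of Tcf4 and 1 of Tcf12.

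Tcf12, which encodes the E protein HEB, had 5 probe sets. The brightest read 669, 538 and 619 in the controls and 526, 599 and 548 in the treated cells, so the groups overlapped. The next read 448, 512 and 500 against 368, 379 and 437, with every treated array below every control. Their log2 differences were -0.12 ± 0.09 and -0.29 ± 0.09 (SE, n = 3 a group). The other 3 probe sets of Tcf12 were much dimmer, with log2 differences of -0.01, -0.56 and 0.03.

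Tcf4, here the E-protein gene and not the Wnt pathway factor of the same alias, was read by 6 probe sets. Its brightest had 355, 399 and 462 in the controls and 371, 341 and 407 in the treated cells. The groups overlapped, and the log2 difference was -0.11 ± 0.10 (SE). At the second the controls read 393, 418 and 446 and the treated arrays 358, 333 and 380, fully below, with a difference of -0.22 ± 0.08. Of the other probe sets, 2 also had all treated arrays below the controls, with -0.15 and -0.18. The 5 tested probe sets of this gene lay between -0.24 and -0.11, a narrower spread than the 3 of Id4.

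Tcf3, which encodes the E proteins first found to bind immunoglobulin enhancers, showed no separation of the groups. Its brightest probe set read 323, 234 and 231 in the controls and 236, 249 and 237 in the treated cells. Control replicate 1 stood above the other 5 arrays. The log2 difference was -0.10 ± 0.12 (SE), and 0.05 without control replicate 1. The other probe sets had -0.08 ± 0.14 and, for a dim one that may cross-hybridise, -0.47 ± 0.27. The dim one had a treated mean of 20.1, under the lowest mean that entered the test (20.3). It was thus tested only through its control arrays.

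**Figure D2:**
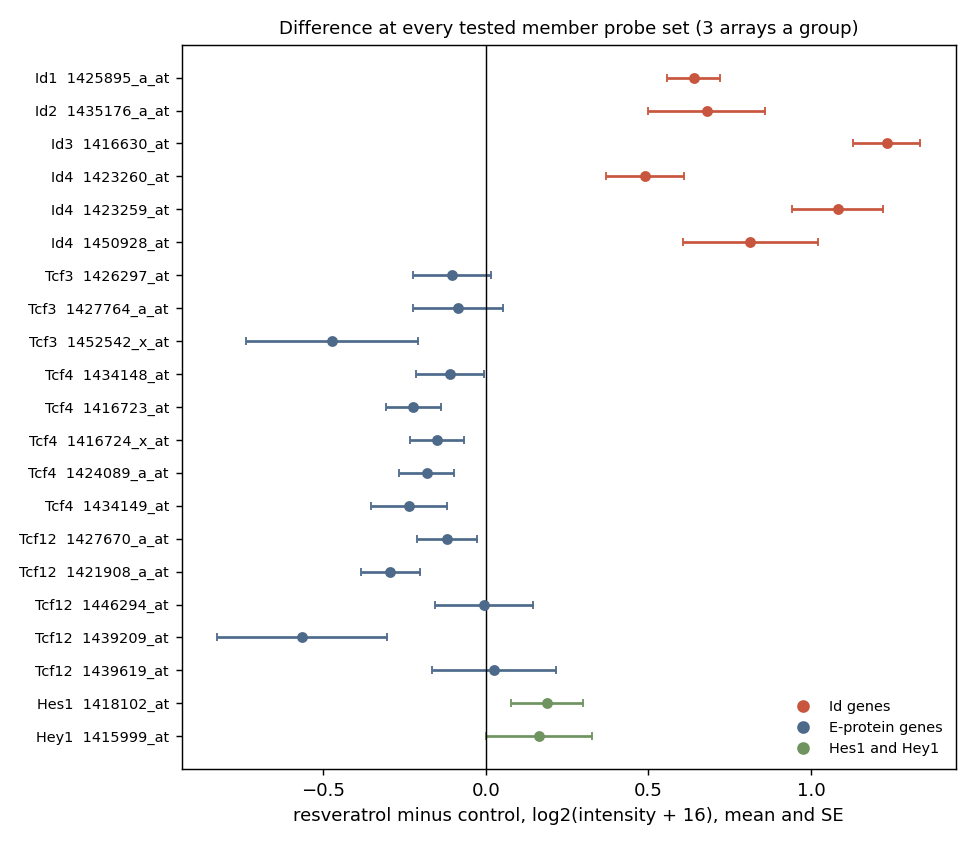
Log2 difference (resveratrol minus control, mean and SE, 3 arrays a group) at the 21 tested member probe sets. The 6 Id probe sets lie between 0.49 and 1.23, the 13 E-protein probe sets between -0.56 and 0.03, and Hes1 and Hey1 at 0.19 and 0.16.

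The Notch target genes lay between these. Hes1, a repressor that oscillates in many cell types, read 201, 192 and 194 in the controls and 198, 213 and 270 in the treated cells, with a log2 difference of 0.19 ± 0.11 (SE, n = 3 a group). The difference was 0.07 without resveratrol replicate 3, the only treated array that stood clearly high. Hey1 read 46.3, 29.4 and 41.3 in the controls and 44.2, 46.7 and 44.4 in the treated cells, a difference of 0.16 ± 0.16. The groups overlapped for both. Neither was called, beside 8.17% of all tested probe sets, and nothing is read from that.

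With each array left out in turn, the log2 difference ranged from 1.18 to 1.29 for Id3, from 0.58 to 0.71 for Id1 and from 0.59 to 0.79 for Id2 at its brightest probe set. For Id4 it ranged from 0.42 to 0.60, from 0.93 to 1.17 and from 0.64 to 1.07 at its 3 probe sets. Since the groups do not overlap at these probe sets, their direction could not turn. The hybridisation spikes, transcripts added to each sample in a fixed amount, were brighter on control replicates 1 and 2 and resveratrol replicate 1 than on the other 3 arrays. Within the brighter and the dimmer arrays the log2 differences were 1.19 and 1.34 for Id3, 0.55 and 0.76 for Id1, and 0.69 and 0.51 for Id2 at its brightest probe set. The 3 probe sets of Id4 had 0.62 and 0.43, 0.87 and 1.30, and 0.52 and 1.22, so the third differed most between the 2 sets of arrays. Each of these values has 1 array on one side, the treated one among the brighter arrays and the control among the dimmer.

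**Figure D3:**
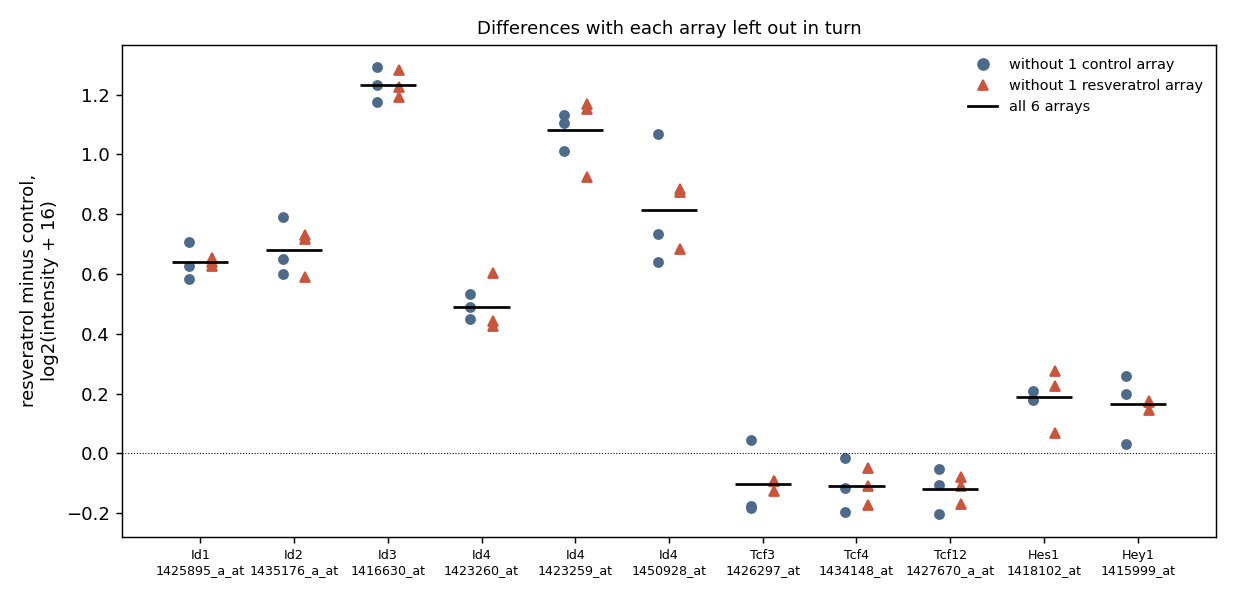
Log2 difference (resveratrol minus control) of the same probe sets as in the plot of intensities, with all 6 arrays (line) and with 1 array left out (points). Id3 stays between 1.18 and 1.29, while the brightest probe set of Tcf3 spans -0.18 to 0.05.

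Over the 6 arrays, the genes whose pattern was most like that of Id3 were Thbd, which encodes thrombomodulin, the tropomyosin gene Tpm3 and the translation initiation factor gene Eif3b, with Pearson correlations of 0.999, 0.998 and 0.998 with Id3. For Id1 they were Calml4, Nudcd3 and Myl4, and for Id2 Ppm1l, Serpinb9 and Racgap1. Racgap1 is known for its part in cell division. These correlations contain the difference between the groups itself and rest on 6 arrays that share their scaling, so they only describe likeness. The log2 differences of these 9 genes lay between 0.32 for Eif3b and 0.67 for Serpinb9, below that of Id3.

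Genes that act upstream of the Id genes or alongside the bHLH proteins were counted over lists of genes, by limma with adjustment over all tested probe sets. Each gene was read from its brightest probe set. Over all 12630 genes tested, 10.5% passed, 5.32% higher and 5.21% lower, with a median difference of 0.02. A gene that did not pass may still have changed, since in simulated data the fit missed most log2 changes of 0.5.

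BMP ligands, receptors, Smads and antagonists differed little. Of 33 genes 25 were tested, none rose, 1 fell and 24 did not pass, with a median of -0.03. Chrd, which encodes the BMP antagonist chordin, read 66.9, 68.4 and 45.5 in the controls and 42.6, 25.2 and 20.4 in the treated cells. Its treated arrays all lay below the controls, and it fell by 0.76 ± 0.21 (SE, n = 3 a group, limma adjusted p = 0.045). The call was lost without control replicate 1, control replicate 2, resveratrol replicate 2 or resveratrol replicate 3, with limma adjusted p from 0.0231 to 0.148 over the 6 fits that left out 1 array. The BMP-activated Smad genes had 0.26 for Smad1 (limma adjusted p = 0.167) and -0.23 for Smad5 (limma adjusted p = 0.164). Their other tested probe sets had 0.35 and 0.30 for Smad1 and -0.33 and -0.06 for Smad5, and none passed. The receptor gene Bmpr2 had -0.31 (limma adjusted p = 0.173), with its other probe sets at 0.11 and -0.61. Of the BMP list 6 genes, among them the ligand genes Bmp2 and Bmp6, were too dim to be tested.

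In Notch signalling, the pathway upstream of Hes1 and Hey1, 33 of 39 genes were tested, 2 rose, none fell and 31 did not pass, with a median of 0.11. Jag1, a Notch ligand gene, read 774, 720 and 769 in the controls and 910, 971 and 1109 in the treated cells. Its groups lay apart, and it rose by 0.39 ± 0.09 (SE, limma adjusted p = 0.0178), a call lost without control replicate 2, resveratrol replicate 2 or resveratrol replicate 3. Its other probe sets had 0.28 and 0.19 and did not pass. Rfng, a glycosyltransferase that modifies Notch, rose by 0.29 ± 0.08 (limma adjusted p = 0.0479), while its other probe set had -0.00. The Rfng call was lost in each of the 6 fits that left out 1 array. Dtx4 had -0.29 and the corepressor gene Tle3 -0.29, and neither passed (limma adjusted p = 0.0593 and 0.0914).

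The tissue-restricted bHLH genes, whose products compete with Id proteins for E proteins, held 1 call. Of 32 genes 16 were tested and 15 were too dim, and of those tested 1 rose and none fell, with a median of 0.01. Twist2, a bHLH repressor of mesenchymal cells, read 336, 377 and 355 in the controls and 535, 462 and 446 in the treated cells. It rose by 0.42 ± 0.09 (SE, n = 3 a group, limma adjusted p = 0.0157), a call lost without resveratrol replicate 1. Its relative Twist1 had -0.23 ± 0.10 with overlapping groups (limma adjusted p = 0.213). Hand1 and Mesp2 had 0.47 and -0.32 and did not pass (limma adjusted p = 0.254 and 0.347).

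A list of bHLH factors with a leucine zipper or PAS domain, which also holds the bHLH-Orange repressor genes Bhlhe40 and Bhlhe41 that have neither, had 6 calls. Of 26 genes tested of 30, 2 rose, 4 fell and 20 did not pass, with a median of -0.07. Myc, the proliferation regulator, read 428, 328 and 359 in the controls and 566, 543 and 632 in the treated cells, and rose by 0.63 ± 0.10 (SE, limma adjusted p = 0.0038). Its obligate partner Max rose by 0.45 (limma adjusted p = 0.0342), and Mxi1, which competes with Myc for Max, fell by 0.57 ± 0.08 (limma adjusted p = 0.00133). These genes of one network were thus not all moved the same way.

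Bhlhe40, which is tied to the clock and to low oxygen, read 599, 614 and 620 in the controls and 368, 369 and 365 in the treated cells, and fell by 0.71 ± 0.07 (SE, n = 3 a group, limma adjusted p = 0.000144). Mlxipl, the carbohydrate response factor, fell by 1.42 ± 0.17 (limma adjusted p = 0.000459), from a mean of 78.2 to 19.3. That treated mean lies below 20.3, the lowest mean that entered the test. The Mlxipl probe set was thus tested only through its control arrays and had to lie lower with resveratrol. Ahr, the aryl hydrocarbon receptor, fell by 0.75 (limma adjusted p = 0.0182). Max and Ahr were named after their values were seen, and both calls were lost without control replicate 2, control replicate 3, resveratrol replicate 1 or resveratrol replicate 2. Bhlhe40, Mlxipl, Mxi1 and Myc were called in each of the 6 fits that left out 1 array, though for Mlxipl the filter favoured this.

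**Figure D4:**
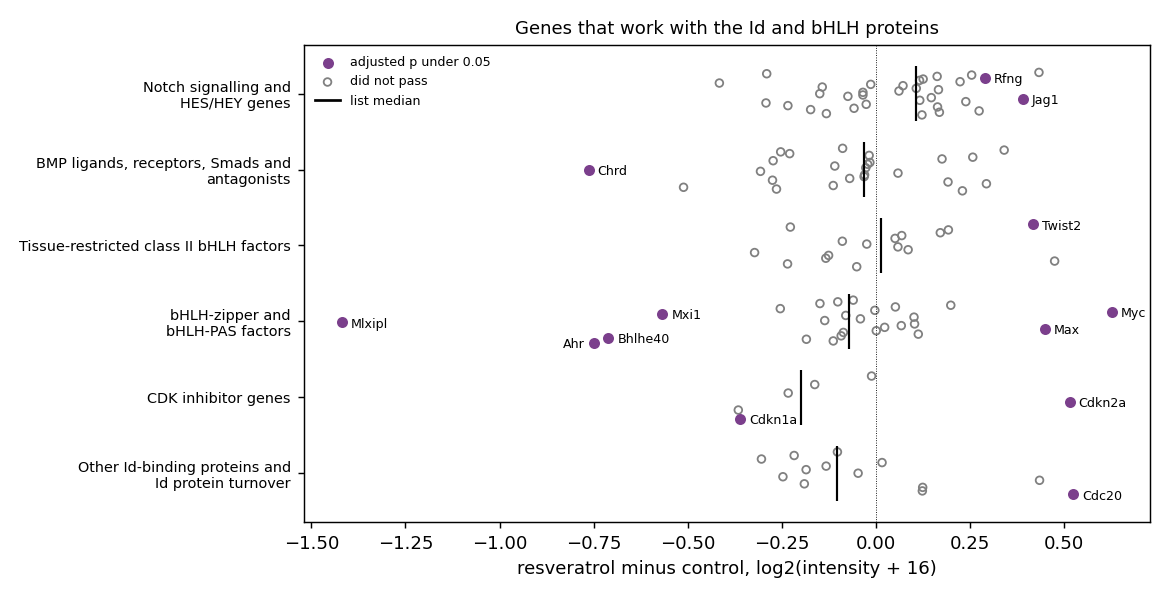
Log2 difference (resveratrol minus control) of each tested gene in 6 lists of genes that act with Id and bHLH proteins, 1 point a gene at its brightest probe set. Filled points passed limma with an adjusted p under 0.05, the vertical bar is the list median. The medians lie between -0.20 for the CDK inhibitor genes and 0.11 for the Notch list.

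Cyclin-dependent kinase inhibitor genes, several of which are targets of E proteins, went both ways. Of 7 genes 6 were tested, 1 rose, 1 fell and 4 did not pass. Cdkn2a, the locus of the cell cycle inhibitors p16 and p19Arf, read 561, 410 and 436 in the controls and 717, 727 and 579 in the treated cells, and rose by 0.51 ± 0.12 (SE, n = 3 a group, limma adjusted p = 0.0259). That call was lost without control replicate 2, control replicate 3, resveratrol replicate 1 or resveratrol replicate 2. Cdkn1a, which encodes p21, fell by 0.36 (limma adjusted p = 0.0495), and its other tested probe set had the same difference of -0.36 (limma adjusted p = 0.0469). The call of the brighter one held only without control replicate 3 among the 6 fits that left out 1 array. Cdkn2b and Cdkn1b had -0.23 and -0.37 and did not pass (limma adjusted p = 0.0772 and 0.0891). The other tested probe set of Cdkn1b had -0.02.

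Among 13 other genes for Id-binding proteins and for enzymes that stabilise or degrade Id proteins, 1 rose, none fell and 12 did not pass, with a median of -0.10. Cdc20, an activator of the ubiquitin ligase of mitosis, rose by 0.52 ± 0.12 (SE, n = 3 a group, limma adjusted p = 0.0202), a call lost without control replicate 3, resveratrol replicate 2 or resveratrol replicate 3. Its other probe set rose as well, by 0.39 (limma adjusted p = 0.0468). Smurf1, Ets1 and Ets2 had -0.30, 0.43 and -0.25 and did not pass (limma adjusted p = 0.0518, 0.052 and 0.145). Other tested probe sets had smaller differences, -0.11 for Smurf1 and 0.25, 0.00 and 0.25 for Ets1.

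Markers of fat cells differed between the same groups as the Id genes, and their part in the Id differences was not tested. Of 9 tested adipocyte markers 5 fell and none rose (median -0.31), with the summed intensity from 40440 to 59221 on the control arrays and from 36708 to 44857 on the treated arrays. Fabp4 and Adipoq, which define adipocytes, were at least 6218 on every array. Of 8 tested preadipocyte or fibroblast markers 1 rose, Thy1 by 0.40 (limma adjusted p = 0.0078), and Dlk1 had 0.08. In bulk samples, fewer fat cells and less RNA of a gene per fat cell cannot be told apart. Of 7 tested macrophage markers 1 rose, Cd14 by 0.47 (limma adjusted p = 0.0365), with sums of 331 to 415 and 439 to 510, and the defining marker Ptprc averaged 10.6 and 6.40. No endothelial or skeletal muscle marker passed among 2 and 4 tested, with 6 of 8 and 4 of 8 too dim.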

How the data were processed

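Total RNA of 6 samples was labelled with biotin and hybridised to one-colour oligonucleotide arrays, per the labels' protocols. The authors deposited linear intensity values, 1 per probe set and array. The summarising software: not given in the sources used here. Each array has a mean of 150 after trimming 2% at each end, so the deposited values carry 1 scaling factor per array. All 6 columns were used as deposited.

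Values were turned into log2(intensity + 16). The 64 control probe sets were left out, and the brightest 60% by mean log2 value entered a test by limma 3.58.1 in R 4.3.3 (lmFit, eBayes with intensity trend), 2-sided, with Benjamini-Hochberg adjustment and a threshold of 0.05. A gene was read from its brightest probe set. The platform annotation named 1 gene for 34945 probe sets, several for 932 and none for 9160. Of the first, 34741 were matched to RefSeq of GRCm38.p6 and 0 symbols differed.

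Members and lists were chosen with earlier results of these data known. Named are all 9 members, up to 4 genes of each list with the smallest p, 3 genes most like Id1, Id2 and Id3, and the markers Adipoq, Fabp4 and Dlk1. Max, Ahr, Bhlhe41, Bmp2, Bmp6, Thy1, Cd14 and Ptprc fall outside this rule and were chosen after their values were seen. Alternatives were quantile normalization, offsets of 1 and 64, other filters, variance models, array weights, the replicate number or the spike signal as a block, other probe sets of a gene, and leaving out each array. Choosing the brightest probe set by mean intensity was added after seeing the data. The fit was tested on simulated data. Figures were made with matplotlib 3.10.9 under Python 3.11.15.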

Additional observations from a re-analysis of the deposited data

How the results depend on the processing

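The number of arrays limits every value. Over the whole array 2209 probe sets and 1330 genes were called, against 1396 and 848 with no filter on dim probe sets, 861 and 518 without an intensity trend, and 1127 to 1956 and 691 to 1165 with 1 array left out. Of the members' 21 tested probe sets 6 were called, all of Id genes and all higher, beside 8.17% of all tested probe sets. The count was 3 with no filter, 4 without a trend, 4 with the replicate block and 5 with the spike signal block. With 1 array left out it was 3 to 5. In some fits the count includes the second probe set of Tcf12, called lower. These were the brightest 40% of probe sets, array weights, and the fits without control replicate 1 or without resveratrol replicate 3. These calls are of genes chosen on this comparison. The Notch list had 2 calls, 1 with quantile normalization, no filter, robust eBayes, the replicate block or the spike signal block, 0 without a trend, and 0 to 2 with 1 array left out. The BMP list had 1 call, 0 with an offset of 1, no filter, the brightest 40% of probe sets, no trend or the spike signal block, and 0 to 1 with 1 array left out. The tissue-restricted bHLH list had 1 call, 0 without a trend, and 0 to 1 with 1 array left out. The CDK inhibitor list had 2 calls, 1 with an offset of 1, the replicate block or the spike signal block, 0 with no filter or no trend, and 0 to 1 with 1 array left out. The list of other Id-binding and turnover genes had 1 call, 3 with an offset of 64, the brightest 40% of probe sets, array weights or without probe sets that may cross-hybridise, 2 with the replicate block, 0 with no filter or no trend, and 0 to 2 with 1 array left out. The zipper and PAS list had 6 calls, 4 with no filter or no trend, 5 with the brightest 40% of probe sets, and 4 to 6 with 1 array left out. The cause of these shifts was not tested. Among the members' differences, Id3 had 1.36 and 0.96 with offsets of 1 and 64, Id2 0.42 with the mean of its probe sets, and Id4 0.80 with the mean of its probe sets and 1.08 with the probe set brightest by mean intensity. Arrays with the same replicate number did not deviate together (correlations of -0.06, -0.02 and 0.09), so the replicate block rests on a number alone.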
